A study of Rattus norvegicus with 6 samples.

Results

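The cells described here are a class of round spermatids from the testis of SD rats, a laboratory rat strain, chosen by high values of Tex29, Sun5 and Sctr. Single-cell RNA sequencing was done on the testes of 3 rats stressed with terrifying sound, a model of psychological stress, and of 3 normal rats that served as controls, and each animal gave 1 library. The labels describe the animals alike in all else and state neither their age nor how long the sound was played. A cell was placed in the class by its normalized values: each of 30 genes was turned into a z-score over all 11744 cells, the z-scores were averaged within 10 sets of 3 genes that follow germ cell development, and the cell joined the set with the highest mean. Set 4 holds Tex29, Sun5 and Sctr, and 1629 of the 11744 cells joined it. The levels of these 3 genes therefore chose the cells and are given as a description, as are all comparisons of the class with the other sets.

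Round spermatids are the haploid cells that follow the second meiotic division. They build the acrosome, an enzyme-filled cap that lets the sperm enter the egg, lay down the first parts of the tail, and attach the tail to the nuclear envelope before the nucleus elongates and condenses. Transcription is still active in them, much of it driven by CREM, a cAMP-responsive transcription factor, and it stops when transition proteins and then protamines replace the histones.

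Of the genes that chose the cells, Tex29 is a testis-expressed gene, Sun5 codes for a SUN-domain protein of the nuclear envelope that holds the sperm head to the tail, and Sctr codes for the secretin receptor, a receptor coupled to G proteins. The promoter windows of the 3 genes are shown because these genes define the class together. Each window runs from 250 bases before the annotated gene start and is taken from RefSeq on assembly GRCr8, written 5′ to 3′ on the gene's strand, with the 50 bases from the start in capitals. Tex29 lies at chr16:84366224-84366523 on the minus strand, Sun5 at chr3:162815472-162815771 on the minus strand and Sctr at chr13:33680377-33680676 on the plus strand, where these are the coordinates of the windows.
Tex29: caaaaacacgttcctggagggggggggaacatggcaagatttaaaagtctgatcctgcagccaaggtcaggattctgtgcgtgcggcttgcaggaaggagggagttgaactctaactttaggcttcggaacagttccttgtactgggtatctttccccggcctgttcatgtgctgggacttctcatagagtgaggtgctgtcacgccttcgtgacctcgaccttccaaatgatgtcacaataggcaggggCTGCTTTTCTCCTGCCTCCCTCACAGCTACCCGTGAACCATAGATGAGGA
Sun5: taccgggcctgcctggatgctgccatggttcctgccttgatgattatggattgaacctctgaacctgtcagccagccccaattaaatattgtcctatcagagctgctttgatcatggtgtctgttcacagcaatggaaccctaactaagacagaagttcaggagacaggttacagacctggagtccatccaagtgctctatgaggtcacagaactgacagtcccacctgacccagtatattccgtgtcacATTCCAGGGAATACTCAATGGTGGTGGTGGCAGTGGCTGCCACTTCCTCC
Sctr: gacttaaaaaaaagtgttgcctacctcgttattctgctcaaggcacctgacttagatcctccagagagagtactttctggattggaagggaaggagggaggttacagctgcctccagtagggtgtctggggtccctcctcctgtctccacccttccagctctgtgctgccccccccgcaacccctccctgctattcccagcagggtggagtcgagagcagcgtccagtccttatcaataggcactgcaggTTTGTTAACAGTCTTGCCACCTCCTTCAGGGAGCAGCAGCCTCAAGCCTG
The letters TGACGTCA, the palindrome that cAMP-responsive factors bind, were searched on both strands. None of the 3 windows holds them, and 612 of 33469 rat promoter windows of the same length do, which is 1.83%. The shorter core TGACG, which is part of that palindrome, is also in none of the 3 windows and in 21.2% of all windows. These letters say nothing on what lies outside the windows.

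In the class, Tex29 averaged 579 ± 188 CPM (mean ± SD over 6 libraries), where CPM is the gene's count scaled to a fixed total, the same for every library, of all counts of the class. It averaged 201 ± 51.3 CPM in set 3, the set before, and 317 ± 82.7 CPM in set 5, the set after. Sun5 averaged 701 ± 88.1 CPM in the class, 333 ± 55.8 CPM in set 3 and 360.3 ± 86.0 CPM in set 5. Sctr averaged 132 ± 39.3 CPM in the class, 20.6 ± 9.37 CPM in set 3 and 25.0 ± 6.79 CPM in set 5. All 3 genes were higher in the class than in both neighbouring sets in each of the 6 libraries. Sctr was the most restricted of them, at 17.5 times its mean over all other cells, against 8.15 times for Sun5 and 8.002 times for Tex29. Sets 3 and 5 still carried Tex29 and Sun5 at intermediate levels. By library, Sctr stood at 79.9, 143 and 141 CPM in stressed replicates 1 to 3, against 183, 90.6 and 154 CPM in control replicates 1 to 3. Tex29 stood at 398, 482 and 735 CPM in stressed replicates 1 to 3, against 580.3, 410.5 and 865 CPM in control replicates 1 to 3. The groups overlapped for Sctr, Tex29 and Sun5.

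**Figure D1:**
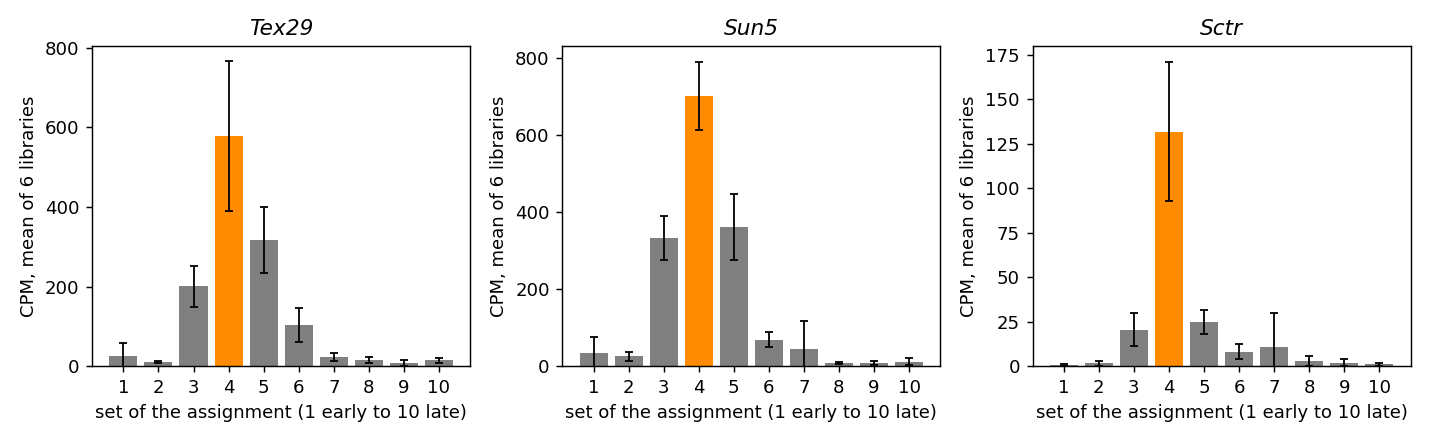
Mean CPM (vertical axes) of Tex29, Sun5 and Sctr in the 10 sets of the assignment (horizontal axes, early to late); bars are means over 6 libraries, error bars are SD, and the class is orange. Each of the 3 genes, which chose the cells, has its highest bar in set 4, and Tex29 and Sun5 keep intermediate levels in sets 3 and 5.

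Not every cell of the class had all 3 genes. In 823 of the 1629 cells (50.5%) all 3 genes were detected, in 723 (44.4%) 2 of them and in 83 (5.10%) only 1. Sun5 was detected in 94.3% to 100% of the class's cells in a library and Sctr in 47.9% to 67.7%. The set 4 score exceeded that of the next set by a median of 0.873 z-score units. Near the border, 92 cells exceeded the next set by under 0.1 and had a mean set 4 score of 0.963, while 100 cells of other sets with set 4 next and within 0.1 had a mean set 4 score of 0.991. The next set was set 5 for 493 cells (30.3%) and set 3 for 477 cells (29.3%) and these were the most frequent next sets. For 190 cells the next set was set 1, of spermatocyte genes, and for 126 cells it was set 10, of late tail genes. When every cell was thinned to 10000 counts, 1446 of the 1629 cells (88.8%) stayed in the class.

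The label of round spermatids was checked against marker genes. Markers of round spermatids, without the 4 that are themselves genes of the sets, summed to 8673 CPM in the class, to 6586 CPM in set 3 and to 7476 CPM in set 5. Spermatocyte markers, likewise the 10 of 14 that are not genes of the sets, summed to 329 ± 20.5 CPM in the class and to 2254 ± 1008 CPM in set 1. Elongating spermatid markers, the 7 of 14 that are not genes of the sets, summed to 12789 ± 2546 CPM in the class, between 5784 ± 1299 CPM in set 3 and 22027 ± 4222 CPM in set 5, and were highest in set 9, at 63362 ± 15498 CPM. Of the 10 sets, set 4 thus had the highest sum of round spermatid markers, with spermatocyte markers low and elongating spermatid markers at an intermediate level. Markers of most somatic cell types of the testis were low. In the 6 libraries, Sertoli markers summed to between 2.94 and 14.6 CPM over 10 markers with Amh at 0, endothelial markers to between 0 and 2.83 CPM over 8 with Emcn and Esam at 0, and stromal markers to between 3.94 and 29.3 CPM over 9 with Lum at 0. Macrophage markers, 14 in all with none at 0, summed to 238, 72.2, 93.6 CPM in stressed replicates 1 to 3, against 117, 186, 78.3 CPM in control replicates 1 to 3. Markers of T and natural killer cells summed to 20.5 CPM in stressed replicate 1 and to at most 1.71 CPM in each other library, over 8 markers with Cd2, Nkg7, Gzma and Klrd1 at 0. Peritubular myoid markers summed to between 10.9 and 55.5 CPM and Leydig markers to between 110.3 and 161 CPM. Fdx1 was the highest of the 8 Leydig markers, none at 0, and only 1 of the 8 was at 50 CPM or more in the class. The Leydig sum averaged 127 ± 19.6 CPM in the class, its highest mean over the 10 sets. It averaged 91.2 ± 29.1 CPM in set 3 and 108 ± 26.7 CPM in set 5.

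The class held 30, 230 and 384 cells in stressed replicates 1 to 3, against 259, 217 and 509 in control replicates 1 to 3. These were 7.33% (Wilson 95% interval 5.19 to 10.3), 9.18% (8.11 to 10.4) and 17.2% (15.7 to 18.8) of the cells of the stressed libraries. In the control libraries they were 11.1% (9.85 to 12.4), 12.05% (10.6 to 13.6) and 20.8% (19.2 to 22.4). The share averaged 11.2% ± 5.24 in stressed animals and 14.6% ± 5.33 in controls (SD, n = 3 each), a difference of -3.38 percentage points that lay within the spread between animals (2-sided exact permutation test, p = 0.5; with 3 animals a group no p below 0.1 is possible). The third replicate had the highest share in both groups, and the groups overlapped. Without stressed replicate 1, the smallest library with 409 cells in all, the difference was -1.43 points, and without control replicate 3 it was -0.317 points. Intervals cover counting error only.

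**Figure D2:**
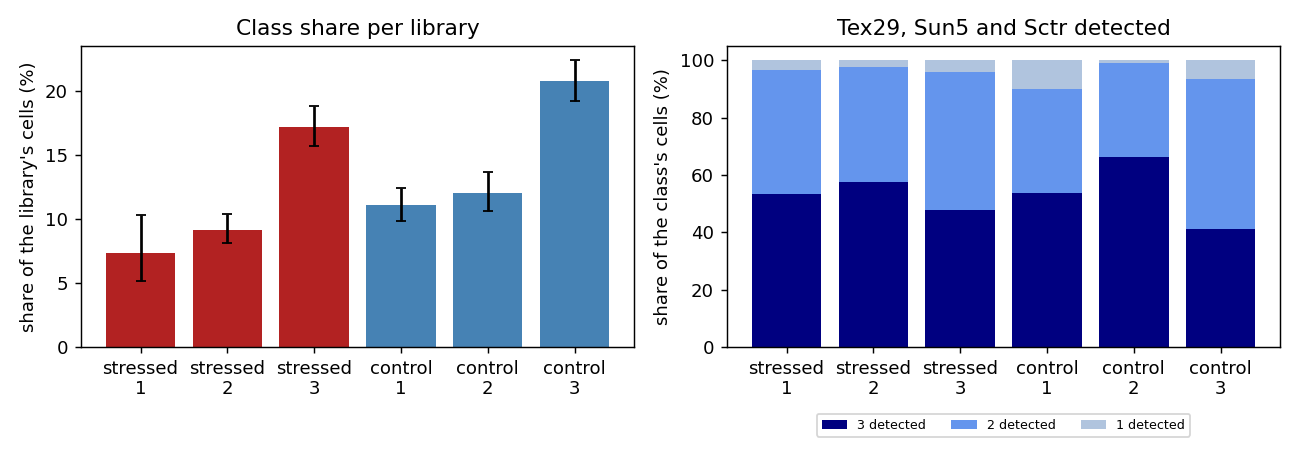
Left, the class's share of each library's cells in percent, with Wilson 95% intervals, for stressed replicates 1 to 3 (red) and control replicates 1 to 3 (blue); right, the percent of the class's cells in which 3, 2 or 1 of Tex29, Sun5 and Sctr were detected. Shares run from 7.33% to 17.2% in stressed and from 11.1% to 20.8% in control libraries, and the 2 groups overlap.

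Depth in the class was high but uneven. The class's cells had a median of 30604, 39488 and 31432 counts in stressed replicates 1 to 3, against 39240.0, 36193 and 49463 in control replicates 1 to 3. They had medians of 3211, 2664.5 and 2426 genes in stressed libraries, against 2380.0, 3365 and 2045 in control libraries. Counts summed to 1026385 in stressed replicate 1, to 9067740 and 13975883 in the other stressed libraries, and to between 8190769 and 26862607 in control libraries, so that stressed replicate 1 gives the least precise values. Mitochondrial counts were few, with medians of 0.0126% to 0.0389% of a cell's counts. Only 2 cell barcodes were found in more than 1 library, among 4 cells of the series.

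Genes that followed the same course as the 3 choosing genes were sought among the 2812 genes with at least 50 CPM in the class. Of these, 188 (6.69%) were higher in the class than in both set 3 and set 5 in all 6 libraries, and 13 were lower than in both. Genes higher than in both neighbours in this way are said below to peak in the class, whatever their level in more distant sets. Larger numbers differed from 1 neighbour: 877 genes (31.2%) were above set 3 and 914 (32.5%) below it in all 6 libraries, and 1300 (46.2%) were above set 5 and 479 (17.0%) below it. Without stressed replicate 1, 262 genes peaked in the class, where fewer libraries had to meet the criterion.

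Apart from the choosing genes, the highest ratios to all other cells among the genes that peaked belonged to Sec16a, Togaram1 and Aldh18a1. Sec16a, a scaffold of the sites where vesicles leave the endoplasmic reticulum, averaged 112 ± 10.8 CPM in the class, 44.1 ± 9.92 CPM in set 3 and 36.4 ± 6.80 CPM in set 5, and 9.39 times its level in all other cells. Togaram1, a microtubule-binding protein of cilia, averaged 409 ± 60.4 CPM in the class, 209.6 ± 16.6 CPM in set 3 and 129 ± 20.7 CPM in set 5. Aldh18a1, an enzyme of proline synthesis, averaged 133 ± 68.6 CPM in the class but ranged from 51.3 CPM in control replicate 3 to 249 CPM in control replicate 2. Adcyap1, the neuropeptide PACAP that acts on receptors of the same family as the secretin receptor, averaged 277 ± 47.7 CPM in the class, against 140.2 ± 24.8 CPM in set 3 and 141 ± 14.5 CPM in set 5, while Adcyap1r1, its main receptor, had no count in the class. Muc15, a membrane mucin, averaged 195 ± 28.9 CPM in the class, Serpinb11, a member of the serpin family, 189.9 ± 20.0 CPM, and Defb11, a beta-defensin, 83.7 ± 13.3 CPM. Lmnb2, which codes for lamin B2 of the nuclear lamina, averaged 118 ± 26.6 CPM in the class, against 50.6 ± 20.4 CPM in set 3 and 67.2 ± 23.8 CPM in set 5. The others were Asb15, 1700122O11Rik, Rabep2, Hdac1l, Siva1 and a pair of genes named only by identifier, ENSRNOG00000068341 and ENSRNOG00000058091. Of these 15 genes 8 matched a promoter window, and 2 of the 8 hold the core TGACG, beside the 21.2% of all windows, while 0 of the 8 hold the full palindrome.

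Transcription factors of round spermatids split into those highest in the class and those highest before or after it. Of 14 members of the list at 50 CPM or more, 3 peaked in the class, beside 6.69% of all genes at that level, and all 3 are DNA-binding factors. Crem averaged 651 ± 47.8 CPM in the class, against 591 ± 31.1 CPM in set 3 and 430.0 ± 51.3 CPM in set 5, and 192 ± 33.2 CPM in set 6. Creb1, its close relative, averaged 315 ± 57.1 CPM in the class, 179 ± 38.3 CPM in set 3 and 227 ± 57.7 CPM in set 5. Rfx4, of the RFX family, averaged 61.2 ± 19.1 CPM. Fhl5, a testis coactivator of CREM, averaged 690.0 ± 56.5 CPM in the class and 284 ± 29.8 CPM in set 3, but was highest in set 8, at 1053 ± 103 CPM. Sox30, a factor needed for round spermatid genes in the mouse, averaged 70.0 ± 15.6 CPM in the class and was highest in set 5, at 91.5 ± 21.3 CPM. Rfx2, another RFX factor of the haploid programme, averaged 50.3 ± 12.2 CPM in the class and 81.1 ± 21.3 CPM in set 3 and was highest in set 2.

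Acrosome genes gave the most peaks by number, from a long list. Of the 36 acrosome genes at 50 CPM or more, 8 were above both neighbours in all 6 libraries, beside 6.69% of all genes at that level. They were Spaca1, Spaca3, Spaca4, Spaca5, Spaca7, Lyzl1, Lyzl4 and Tmem190. Spaca1, a membrane protein needed for the shape of the acrosome in the mouse, averaged 366 ± 87.5 CPM in the class, 273 ± 76.7 CPM in set 3 and 308 ± 67.4 CPM in set 5. Spaca4, a sperm surface protein used in fertilization, averaged 1214 ± 117 CPM in the class, 738 ± 81.9 CPM in set 3 and 1069 ± 148 CPM in set 5. Lyzl4 and Spaca3, which resemble lysozyme, averaged 438 ± 51.3 and 832 ± 122 CPM in the class and were below that in both neighbouring sets. In all 6 libraries, 18 of the 36 were above set 3 and 7 below it, beside 31.2% and 32.5% of all genes at that level. The means of Acr, Zpbp and Acrv1 were higher in set 3 by less than the spread between libraries, which does not pair the sets within a library. Acr, the acrosomal protease acrosin, averaged 669.9 ± 85.8 CPM in the class and 717 ± 141 CPM in set 3. Zpbp, a binding protein for the zona pellucida, averaged 629 ± 100.4 CPM in the class and 683 ± 108 CPM in set 3. Acrv1, which marks the growing acrosome, averaged 191 ± 58.3 CPM in the class and 196 ± 79.1 CPM in set 3, likewise closer together than the spread between libraries. Actl9, an actin-like protein of the layer beneath the acrosome, was highest later, with 229 ± 37.3 CPM in the class, 393 ± 64.3 CPM in set 5 and 428 ± 59.8 CPM in set 6. The whole list summed to 17435 ± 931 CPM in the class, its highest sum over the 10 sets.

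Genes of the nuclear envelope and of the joint between head and tail, the group to which Sun5 belongs, numbered 22 at 50 CPM or more. Of these, 5 peaked in the class, Sun5 included, beside 6.69% of all genes at that level. Sun3, a SUN protein linked to the manchette, the microtubule skirt that shapes the nucleus, averaged 515 ± 68.9 CPM in the class, 392 ± 41.5 CPM in set 3 and 423 ± 55.2 CPM in set 5. Dnajb13, a part of the axoneme's radial spokes, averaged 362 ± 49.9 CPM, and Septin4, of the ring at the end of the midpiece, 140.5 ± 42.6 CPM. Spag4, another SUN protein, averaged 307 ± 53.9 CPM in the class but 426 ± 133 CPM in set 8. Banf2, a germ cell relative of a chromatin-binding nuclear envelope factor, averaged 413 ± 59.0 CPM in the class, 73.1 ± 16.2 CPM in set 3 and 509 ± 88.7 CPM in set 5. The SUN proteins of the list thus did not share 1 course. None of the 26 genes of the manchette and of intraflagellar transport at 50 CPM or more peaked in the class, beside 6.69% of all genes. In all 6 libraries 15 of the 26 were below set 3, beside 32.5% of all genes.

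Of 11 genes of cAMP signalling at 50 CPM or more, 5 peaked in the class, beside 6.69% of all genes at that level. They were Crem, Adcyap1, Sctr, Pde1a and Prkar2b. Sctr is one of the choosing genes, and Crem is also counted with the transcription factors. Prkar2b, a regulatory subunit of protein kinase A, averaged 93.9 ± 40.4 CPM in the class, 34.6 ± 14.3 CPM in set 3 and 60.1 ± 22.2 CPM in set 5. Pde1a, a phosphodiesterase that breaks down cyclic nucleotides, averaged 322 ± 74.6 CPM in the class and was highest in set 10, at 612 ± 143 CPM. Akap3, an anchor of protein kinase A in the sperm tail, averaged 715 ± 91.5 CPM in the class and 905 ± 115 CPM in set 5.

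In the other groups the counts of peaks were small and are to be read beside the 6.69% of all genes at 50 CPM or more. None of 12 genes of the chromatoid body and piRNA pathway, none of 15 genes of mRNA storage and none of 8 autophagy genes peaked. Single genes did so among 49 axoneme and tail genes (Odf3), 21 heat shock genes (Bag3, a co-chaperone), 12 genes of chromatin exchange (H3f3a, a gene for histone H3.3) and 6 genes of the glucocorticoid response (Klf9, a transcription factor). Of 12 antioxidant genes, 2 peaked, Txndc8, a thioredoxin of spermatids, at 880.4 ± 109 CPM in the class and Sod1, a superoxide dismutase, at 552 ± 53.9 CPM. Of the 21 heat shock genes, 10 were below set 3 and 5 above it in all 6 libraries, beside 32.5% and 31.2% of all genes at that level. Hsp90aa1 averaged 1678 ± 204 CPM in the class and 3176 ± 318 CPM in set 3. Hspa5, the chaperone BiP of the endoplasmic reticulum, averaged 89.7 ± 13.3 CPM in the class and 639.8 ± 97.6 CPM in set 3. Pabpc1, the cytoplasmic poly(A)-binding protein, averaged 6412 ± 1737 CPM in the class and 8209 ± 1892 CPM in set 3, and Ddx25, an RNA helicase of the chromatoid body, 570.4 ± 70.4 CPM and 750.3 ± 127 CPM in the same order. Transition protein and protamine RNA was higher than in set 3. Tnp1 averaged 5346 ± 1789 CPM in the class, 1388 ± 551 CPM in set 3 and 12102 ± 3472 CPM in set 5, and Prm2 averaged 1193 ± 362 CPM in the class, 661 ± 388 CPM in set 3 and 5000.4 ± 1764 CPM in set 5. Prm2 is itself one of the 3 genes of set 9 of the assignment, and Tnp1 is not among the 30.

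**Figure D3:**
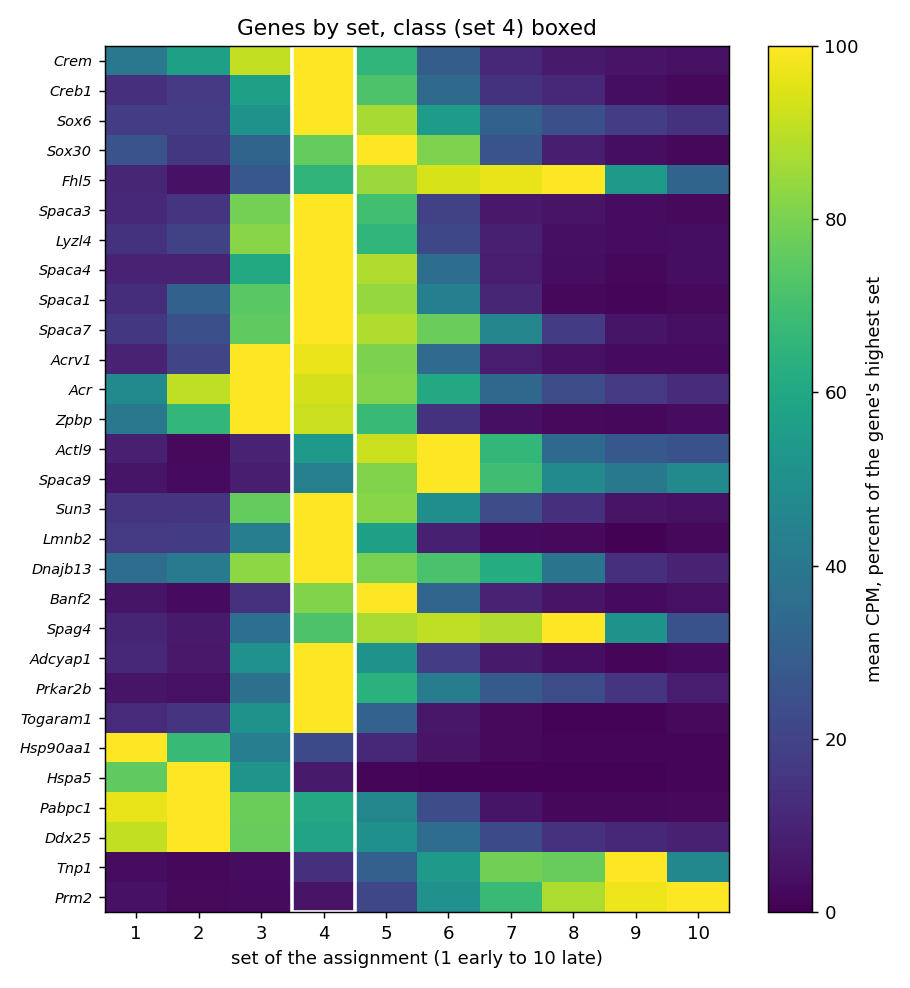
Mean CPM of 29 genes (rows) in the 10 sets (columns, early to late), each as percent of the gene's own highest set, with the class boxed; the genes shown were chosen after their values were seen. Crem, Creb1, Spaca3 and Lmnb2 are highest in the box, Acr and Zpbp in set 3, Banf2 and Sox30 in set 5, and Tnp1 and Prm2 in sets 9 and 10.

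The class was not uniform inside. Its cells were divided by their next set into an early side (477 cells, next set 3) and a late side (493 cells, next set 5). This division uses the cells' own expression, so it is a description. Of the 2812 genes, 450 (16.0%) were higher and 505 (18.0%) lower on the late side in all 6 libraries. Genes named here, other than those fixed for the comparison of the groups, were chosen after their values were seen. Tp53tg5 averaged 243 ± 88.3 CPM on the late side and 35.6 ± 22.1 CPM on the early side, and Ccdc25 averaged 136 ± 45.2 CPM on the late side and 19.7 ± 13.2 CPM on the early side. Prss37, a protease-like protein of the acrosome needed for fertility in the mouse, averaged 121 ± 21.8 CPM on the late side and 24.3 ± 7.87 CPM on the early side. Tnp1 averaged 6775 ± 2231 CPM on the late side and 2887 ± 878 CPM on the early side, and Crem 629 ± 44.2 CPM on the late side and 657 ± 66.2 CPM on the early side. Tnp1 thus differed between the sides in all 6 libraries, and Crem differed by less than its spread.

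In counts summed over the cells of each side, mitochondrially encoded RNA was much lower on the late side. Cells with many such counts weigh most in these sums, and values per cell were not compared between the sides. The sum over 13 genes was 428 ± 204 CPM on the late side and 2591 ± 2715 CPM on the early side, and all 8 such genes at 50 CPM or more were lower on the late side in all 6 libraries. By library, the sum on the late side was 413, 561 and 219.7 CPM in stressed replicates 1 to 3, and 415, 744 and 213 CPM in control replicates 1 to 3. On the early side it was 8064, 1063 and 1361 CPM in the stressed libraries, and 1977, 2025 and 1058 CPM in the control libraries. The highest value, of stressed replicate 1, comes from 7 cells. Hsp90b1, an endoplasmic reticulum chaperone, averaged 61.0 ± 27.3 CPM on the late side and 163 ± 29.6 CPM on the early side.

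**Figure D4:**
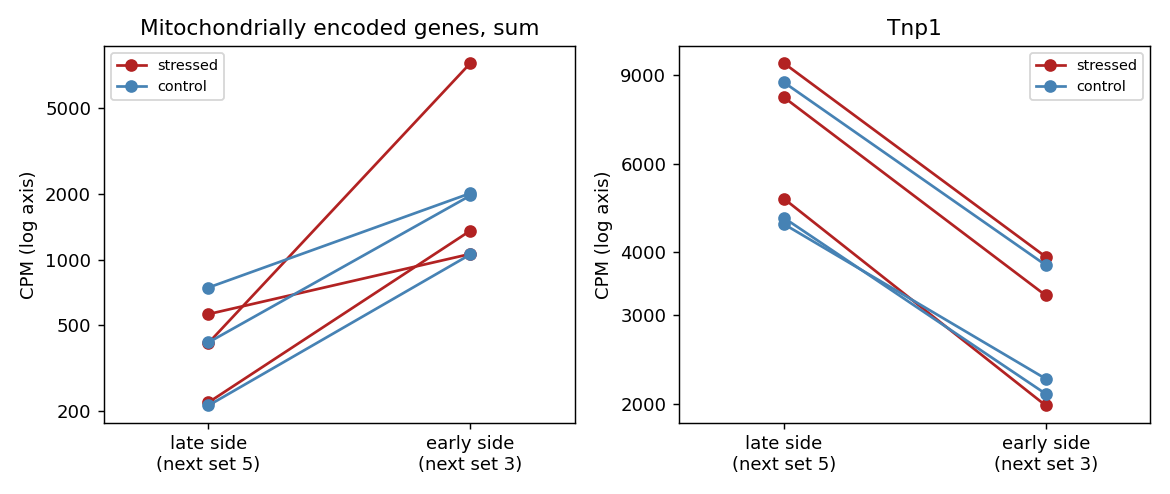
CPM on log axes for the late side (left) and the early side (right) of the class, 1 line per library, stressed red and control blue; left panel, the sum of 13 mitochondrially encoded genes, right panel, Tnp1. In every library the mitochondrial sum is lower and Tnp1 higher on the late side.

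Where the class's cells sat along this course was described with the set 5 score minus the set 3 score. Both scores were used to place the cells, so these values are given without a test. It averaged 0.136, 0.194 and 0.105 in stressed replicates 1 to 3, against -0.0456, 0.191 and -0.0536 in control replicates 1 to 3. Control replicate 2 lay among the stressed animals, and the other 2 controls lay below them. The means were 0.145 ± 0.0449 in stressed animals and 0.0307 ± 0.139 in controls (SD, n = 3 each), a difference of 0.114 z-score units. For the class's share of the cells given above, the adjusted p was 0.667 (Benjamini-Hochberg over the exact permutation p-values of 4 measures per library, the others being this position and the medians of counts and of genes per cell).

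Whether stress changed RNA levels in the class was tested on counts summed per animal. Of 9792 genes tested, 1 was called higher in stressed animals (0.0102%) and 0 were called lower (0%) at an adjusted p under 0.05 (edgeR quasi-likelihood test with Benjamini-Hochberg adjustment). At an unadjusted p under 0.05 there were 266 genes (2.72%), and DESeq2 called 2 genes higher and 3 lower. The groups did not overlap for 246 genes higher (2.51%) and 622 genes lower (6.35%) in stressed animals, 868 in all (8.86%). The median log2 change over all genes was -0.01.

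The gene called was AABR07001902.1, which the tables list by this name and for which no function is given. It stood at 39.0, 29.2 and 26.0 CPM in stressed replicates 1 to 3, against 1.76, 2.56 and 3.50 CPM in control replicates 1 to 3. All 3 stressed animals were far above all 3 controls. Its log2 change was 3.58 ± 0.44 (SE) at an adjusted p of 0.0270 (edgeR, Benjamini-Hochberg). The call held without stressed replicate 1 (adjusted p = 0.0331) and was lost without stressed replicate 2 (0.135), stressed replicate 3 (0.0619), control replicate 1 (0.404), control replicate 2 (0.0679) or control replicate 3 (0.103), all with log2 changes between 3.33 and 3.93. The gene showed the same pattern in the neighbouring sets. In set 3 it stood at 27.1, 38.8 and 27.8 CPM in stressed replicates 1 to 3, against 2.71, 2.78 and 3.63 CPM in control replicates 1 to 3. In set 5 it stood at 29.5, 24.2 and 24.1 CPM in stressed replicates 1 to 3, against 1.18, 1.74 and 2.37 CPM in control replicates 1 to 3.

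Another gene without a symbol, ENSRNOG00000071151, ran the other way at 0, 3.31 and 0.429 CPM in stressed replicates 1 to 3, against 40.6, 32.1 and 25.3 CPM in control replicates 1 to 3. Its log2 change was -4.28 ± 0.71 (SE), with an adjusted p of 0.259 by edgeR and of 3.71e-08 by DESeq2. RT1-Bb, a chain of a class II molecule of the rat major histocompatibility complex that presents antigen, stood at 1.95, 1.10 and 1.79 CPM in stressed replicates 1 to 3, against 16.0, 13.6 and 8.12 CPM in control replicates 1 to 3, a log2 change of -2.95 ± 0.56 (SE) (adjusted p = 0.583 by edgeR, 0.00231 by DESeq2). Cells of the macrophage kind carry such molecules, and the macrophage marker sums given above, over a list that holds RT1-Bb itself, overlapped between the groups. Their part in this value was not tested. Stx17, a membrane fusion protein of autophagosomes, stood at 8.77, 8.05 and 15.2 CPM in stressed replicates 1 to 3, against 1.67, 2.32 and 1.75 CPM in control replicates 1 to 3, a log2 change of 2.56 ± 0.55 (SE) (adjusted p = 0.907 by edgeR, 0.00818 by DESeq2). A single cell held 5 of the 9 counts of Stx17 in stressed replicate 1, and a single cell held 26 of its 47 counts in control replicate 3. The groups of all 3 genes stood apart, as did those of 8.86% of all genes tested. None of the 3 passed the threshold in the edgeR test over all 6 libraries with the filter on low counts. ENSRNOG00000071151 did pass it without stressed replicate 2 (log2 change -6.32, adjusted p = 0.0209), with only cells that exceed the next set by 0.5 (-6.48, adjusted p = 0.00368) and with thinned cells (-3.48, adjusted p = 0.0484), and its log2 change was -3.65 without stressed replicate 3 (adjusted p = 0.469). Without the filter on low counts edgeR passed all 3, with adjusted p-values of 2.96e-11 for ENSRNOG00000071151, 0.00763 for RT1-Bb and 0.0386 for Stx17. Pheta1, which codes for a protein of endosomes, had 0 counts in the class in the stressed animals and 142 counts in 25 control cells, at 4.76, 4.27 and 1.97 CPM in control replicates 1 to 3. With a floor of 3 counts put in place of 0 over the stressed group, its level there was 24.6-fold lower (adjusted p = 0.699 by edgeR, 0.0341 by DESeq2). That floor takes counts as independent, although the control counts came at several per cell, and leaves out the spread between animals. The fold is therefore not a lower limit on the change.

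**Figure D5:**
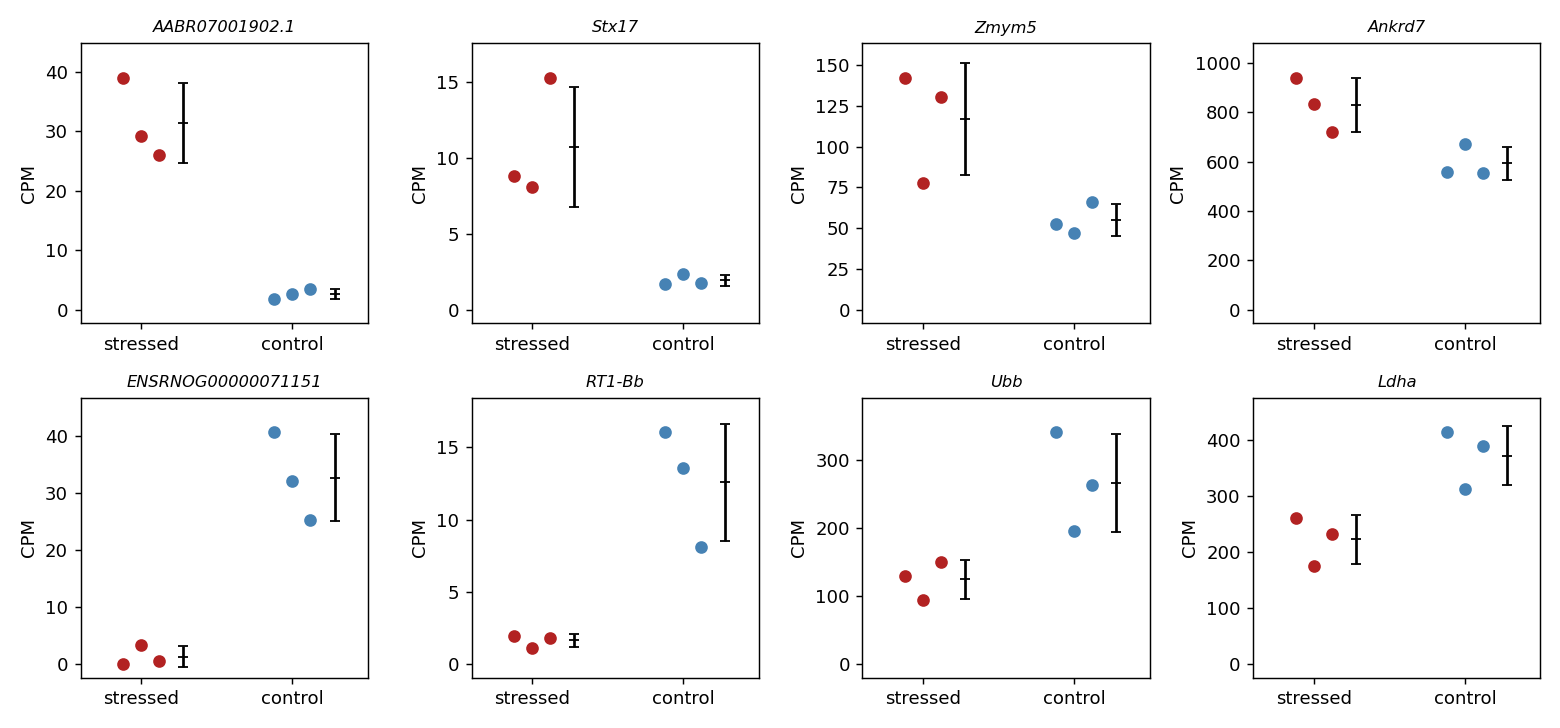
CPM in the class (vertical axes) of 8 genes in stressed replicates 1 to 3 (red, left) and control replicates 1 to 3 (blue, right); points are libraries, black bars are means ± SD. The groups do not overlap for any of the 8 genes, of which only AABR07001902.1 passed the edgeR threshold. Genes with a symbol were chosen among those with groups apart, as 8.86% of all genes tested were, so their separation is no finding.

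Among genes higher in the stressed animals with groups apart, none but AABR07001902.1 passed the threshold. The 12 with the smallest unadjusted p all had adjusted p-values of at least 0.907 (edgeR, Benjamini-Hochberg). Without the filter on low counts, edgeR passed Gys1, Slc27a2, Trem1, Poll and Ccl5 besides Stx17, with adjusted p-values from 1.92e-05 for Gys1 to 0.0217 for Ccl5. Zmym5, a zinc finger protein, stood at 142, 77.9 and 131 CPM in stressed replicates 1 to 3, against 52.6, 46.9 and 65.9 CPM in control replicates 1 to 3. Ankrd7, an ankyrin repeat protein of testis, stood at 938, 834 and 719 CPM in stressed replicates 1 to 3, against 557, 669.9 and 552 CPM in control replicates 1 to 3, and Srgn, the proteoglycan serglycin, at 275, 215 and 154 CPM in the stressed animals, against 137, 151 and 122 CPM in controls. Their log2 changes were 1.11 ± 0.28 (SE), 0.54 ± 0.18 (SE) and 0.69 ± 0.23 (SE) in that order. Klk1c9, a kallikrein, and Slc27a2, an enzyme that activates fatty acids, had log2 changes of 0.80 ± 0.28 (SE) and 1.80 ± 0.55 (SE). That of Slc27a2 was 2.75 without control replicate 1 and 1.36 without control replicate 2. For the remaining 6, a single cell held most of the counts of stressed replicate 1. There all 33 counts of Gys1, the muscle form of glycogen synthase, lay in 1 cell, as did 28 of 31 counts of Trem1, a receptor of myeloid cells, and 26 of 29 counts of Ccl5, a chemokine. Likewise, 1 cell held 35 of 45 counts of Ano9, 27 of 40 counts of Tnnt2, the cardiac troponin T, and 20 of 34 counts of Poll, a DNA repair polymerase. The log2 changes of these 6 ranged from 1.23 for Tnnt2 to 5.01 for Gys1. Without stressed replicate 1 they were 2.71 for Gys1, 1.46 for Trem1, 1.56 for Ccl5, 0.59 for Ano9, and 1.58 for Poll, each a fold over 1.5 times smaller, and 0.90 for Tnnt2. That of Gys1 was 6.47 without control replicate 3, and that of Ccl5 was 3.97 without control replicate 2.

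Among genes lower in the stressed animals, none passed the threshold. Besides RT1-Bb, the 11 genes named by the same rule all had adjusted p-values of 0.998 (edgeR, Benjamini-Hochberg). Without the filter on low counts, edgeR passed Ubb (adjusted p = 0.00711) and Tafa1 (adjusted p = 0.0191) among the 11. Ldha, lactate dehydrogenase A, stood at 261, 175 and 231 CPM in stressed replicates 1 to 3, against 414, 312 and 390.0 CPM in control replicates 1 to 3. Gk2, a glycerol kinase of testis, stood at 48.7, 30.8 and 53.2 CPM in the stressed animals, against 84.5, 65.3 and 114 CPM in controls. Sqor, a mitochondrial enzyme that oxidizes sulfide, stood at 95.5, 88.7 and 84.6 CPM in the stressed animals, against 151, 117 and 179 CPM in controls. Groups that do not overlap were a condition for naming Ldha, Gk2 and Sqor. Their log2 changes were -0.70 ± 0.21 (SE), -0.96 ± 0.32 (SE) and -0.70 ± 0.24 (SE) in that order. Mcat, an enzyme of mitochondrial fatty acid synthesis, and Timm23, part of the protein channel of the inner mitochondrial membrane, had log2 changes of -0.85 ± 0.28 (SE) and -1.52 ± 0.48 (SE). Ubb, a polyubiquitin gene, stood at 129, 93.7 and 149.5 CPM in stressed replicates 1 to 3, against 340.0, 196 and 262 CPM in control replicates 1 to 3, and Prkar1a, a regulatory subunit of protein kinase A, at 37.0, 40.4 and 57.7 CPM in the stressed animals, against 106, 71.3 and 81.2 CPM in controls. Their log2 changes were -1.05 ± 0.25 (SE) and -0.86 ± 0.28 (SE). Bend5, Tafa1, Cfap410 and Cnksr1 completed the 12, with log2 changes from -1.89 to -0.81. Ubb, RT1-Bb and Klk1c9 belong to families with closely similar copies, so their counts are uncertain where reads could be split between copies.

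The genes of the haploid programme showed no change past the threshold. Crem stood at 708, 578 and 641 CPM in stressed replicates 1 to 3, against 695, 625 and 661 CPM in control replicates 1 to 3, a log2 change of 0.01 ± 0.17 (SE), and the groups overlapped. Tnp1 stood at 7527, 6725 and 4063 CPM in stressed replicates 1 to 3, against 3665, 6578 and 3516 CPM in control replicates 1 to 3, a log2 change of 0.47 ± 0.27 (SE). Stressed replicates 1 and 2 and control replicate 2 were high for Tnp1, and the other 3 animals were low. Tnp2, Prm2, Acrv1, Spaca1 and Acr had log2 changes of 0.16, 0.20, -0.25, -0.08 and -0.07, each under its standard error, and the sign turned for Crem, Tnp2, Prm2, Spaca1 and Acr when single libraries were left out. Tnp2 and Prm2 are genes of sets 8 and 9 of the assignment, so their levels helped to place the cells. Rfx2 stood at 40.9, 41.1 and 38.4 CPM in stressed replicates 1 to 3, against 65.8, 64.0 and 51.7 CPM in control replicates 1 to 3, without overlap, and Sox30 at 99.4, 71.5 and 62.7 CPM in the stressed animals, against 70.8, 57.7 and 57.7 CPM in controls, with overlap. Their log2 changes were -0.53 ± 0.26 (SE) and 0.36 ± 0.26 (SE). All these genes had adjusted p-values of 0.998 (edgeR, Benjamini-Hochberg).

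By list, 0 members of the pathway lists were called in either direction, beside 0.0102% of all genes called higher and 0% called lower. Acrosome genes had a median log2 change of 0.02 over 41 tested members, with 23 above 0, beside 48.8% of all genes above 0. For genes of the nuclear envelope and head-tail joint the median was -0.0015 over 31, for transcription factors 0.07 over 30, for cAMP signalling 0.08 over 25 and for axoneme and tail genes 0.02 over 74. Heat shock genes had a median of -0.12 over 32 members, with 7 above 0. In the apoptosis list the median was -0.14 over 15, with 5 above 0, and in the autophagy list it was 0.10 over 28, with 18 above 0. The sign of a median turned with single libraries left out in every one of these lists but heat shock. The autophagy median was -0.13 without stressed replicate 1 and -0.02 without control replicate 2. The apoptosis median was 0.02 without control replicate 1, and 0.22 with thinned cells. That of heat shock genes lay between -0.15 and -0.05 when each library was left out, and was -0.018 with thinned cells. Of 23 genes of the chromatoid body and piRNA pathway, 5 had an unadjusted p under 0.05, beside 2.72% of all genes, and they did not move one way. Rnf17, a Tudor domain protein of that pathway, stood at 21.4, 8.49 and 7.73 CPM in stressed replicates 1 to 3, against 35.4, 23.0 and 24.8 CPM in control replicates 1 to 3. Tdrd1, another Tudor domain protein, stood at 123, 109.8 and 98.6 CPM in stressed replicates 1 to 3, against 75.1, 89.5 and 56.2 CPM in control replicates 1 to 3, and Fkbp6, a co-chaperone of piRNA loading, at 0, 0.993 and 1.57 CPM in the stressed animals, against 7.32, 3.30 and 3.16 CPM in controls. Their log2 changes were -1.23 ± 0.44 (SE), 0.64 ± 0.24 (SE) and -1.97 ± 0.79 (SE), each with an adjusted p of 0.998 (edgeR, Benjamini-Hochberg). The groups of the 3 genes did not overlap.

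Genes of the hormonal stress response stood at very different levels. The glucocorticoid list summed to 2343 ± 204 CPM in stressed animals and 2532 ± 108 CPM in controls (SD, n = 3 each), most of it from Hsp90aa1, a chaperone of the receptor, and 6 members were at 50 CPM or more. Nr3c1, the glucocorticoid receptor itself, had few counts. It stood at 0, 3.75 and 4.44 CPM in stressed replicates 1 to 3, against 0.970, 2.69 and 1.01 CPM in control replicates 1 to 3, and the groups overlapped. Fkbp5 and Tsc22d3, which glucocorticoids induce in many tissues, had 0 counts in stressed animals and 4 and 1 counts in controls, too few for the test. Kdm1a, a histone demethylase, stood at 4.87, 12.9 and 18.0 CPM in stressed replicates 1 to 3, against 9.79, 12.2 and 7.04 CPM in control replicates 1 to 3, again with overlap. The glucocorticoid list had 13 tested members with a median log2 change of 0.12, which ranged from -0.28 without stressed replicate 3 to 0.25 without control replicate 2.

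Whether the change under stress differed between the class and its neighbours was tested directly. Against set 3, 0 of 11038 genes were called in either direction (0%), with 283 genes (2.56%) at an unadjusted p under 0.05, and against set 5, 0 of 10528 genes were called (0%), with 352 (3.34%) (edgeR interaction test with Benjamini-Hochberg adjustment). For AABR07001902.1 the log2 change in the class exceeded that in set 3 by 0.20 ± 0.51 (SE), while against set 5 the difference was -0.28 ± 0.50 (SE). Apart from Tnp2, the genes with a symbol and the smallest unadjusted p against set 3 were Ssna1 (-1.21 ± 0.29 SE) and Dlg1 (2.71 ± 0.69 SE). Tnp2 differed by -0.75 ± 0.17 (SE), which is given as a description because the gene was used in the assignment. Against set 5 the smallest belonged to Ccdc168, at 0.59 ± 0.13 (SE), followed by Mrpl1 (-0.63) and Ndrg1 (-1.74). Each of these genes had an adjusted p of 1.00 (edgeR interaction test).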

How the data were processed

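Dissociated testis was profiled with the Singleron GEXSCOPE kit on an Illumina NovaSeq, per the labels' protocols. For each library the authors deposited raw counts, and normalized values in natural log units, where each value equals the natural log of 1 plus the counts per 10000 of a cell. It is not given in the sources used here if counts are reads or molecules, nor are the aligner, build and cell filter. The normalized values, pooled over all 6 libraries, placed cells in the 10 sets (Python 3.11.15).

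Counts of the class were summed per animal, since cells are not replicates, and tested by quasi-likelihood in edgeR 4.0.16 (R 4.3.3, TMM scaling, filterByExpr, robust), called at an adjusted p under 0.05. Sums of sets 3 and 5 entered the interaction tests with a term for each library. That the libraries are separate animals rests on the labels. CPM values are not TMM-scaled. Scrublet in scanpy 1.11.5 called 9 cells of the class doublets (0.552%), and these were kept. The fits were tested on simulated data.

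Members and lists were chosen with earlier results of these data known. Genes named between the groups were those called, the 12 with a symbol of smallest unadjusted p in each direction among genes with groups apart and a mean of at least 5 CPM, fixed genes, up to 4 per list and up to 4 per direction in each interaction test. Of 692 genes in the lists, 36 were not found under that name. Alternatives were DESeq2 1.42.0, other scaling, no filter, a replicate block, each library left out, and other assignments of cells.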

Additional observations from a re-analysis of the deposited data

How the results depend on the processing

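The number of genes called between stressed and control animals was 1 with edgeR, 5 with DESeq2, 52 without a filter on low counts, 0 with the replicate number as a block (replicate block), 2 with only cells that exceed the next set by 0.5, 2 with cells thinned to 10000 counts, and between 0 and 2 when each library was left out in turn. The cause was not tested. The deviations of same-numbered animals from their group means had correlations of -0.060, -0.041 and 0.094. So few values cannot decide whether the numbers pair the animals. Members of the fixed lists called numbered 0, against 1 with DESeq2 and 1 without the filter. The interaction tests called 0 genes, against 7 (set 3) and 8 (set 5) without the filter. The difference in share lay between -6.36 and -0.317 points and that in position between 0.0722 and 0.195 when each library was left out. The genes peaking in the class then numbered 197 to 262. With fewer libraries the criterion is easier to meet, so these counts do not measure how stable the peaks are.

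The sign turned for Crem without a filter (-0.028), with z-scores within each library (-0.058) and with thinned cells (-0.031), and for Spaca1 with thinned cells (0.055). With each library left out in turn, log2 changes ranged from -0.075 to 0.050 for Crem, from -0.080 to 0.36 for Tnp2, from -0.15 to 0.40 for Prm2, from -0.41 to 0.13 for Spaca1 and from -0.19 to 0.091 for Acr. Over the named genes and all alternatives, 14 values reversed, 16 gained and 6 lost a call. Stressed replicate 1, with 30 cells of the class, has the fewest counts and limits the precision of every comparison of the groups.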
